A study of Mus musculus with 16 samples.

Results

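Untreated cultures of a pancreatic stellate cell line and of mouse sympathetic ganglia were compared gene by gene, to describe which genes and gene families marked each of them. Genes did not enter by how they differed: of the 56941 genes with deposited values 21684 were protein-coding, and the 15721 of these with enough reads to be tested are the genes compared. The gene lists and pairs, in contrast, were chosen with earlier results of these data known, so counts of their members are descriptions and not tests. The comparison used 6 of the 16 libraries of the series, 3 of each tissue. The remaining libraries came from cocultures of these cells, or of the ganglia with mouse embryonic fibroblasts, and were not used.

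The PSC libraries came from mPSC1, an immortalized murine line of pancreatic stellate cells, labelled as pancreas and fibroblast and grown alone in serum-containing medium, so all 3 stand for 1 cell line. The Nerve libraries, labelled neural and sympathetic, came from explants of the superior cervical ganglion (SCG), the uppermost ganglion of the sympathetic chain, taken from wild-type C57BL/6J pups of postnatal day 1 to 4. Ganglia of several pups were treated with collagenase, triturated and pooled, and 8 to 13 explants per well were kept in serum-containing medium with an added neurotrophin on coated plastic. Neither culture received a treatment. The explants keep glia, vessels and immune cells beside neurons, whereas the PSC libraries are 1 line, which the study describes as heterogeneous. Cells of the explants were not separated, and which of them carried fibroblast and matrix transcripts was not tested. Tissue, donor, medium and coating change together, so their parts in a difference cannot be told apart. The study names preparation batches, but the labels tie no library to one, so batches were not compared.

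Sympathetic neurons make noradrenaline from tyrosine in a chain of enzymes, load it into vesicles and take it back up after release. They depend on neurotrophins from their targets, and each cell body is wrapped by satellite glia that share a neural crest origin with it. Pancreatic stellate cells are fibroblast-like cells that store vitamin A at rest. After activation, which culture on plastic also brings about, they lose these stores, divide, contract and lay down collagen.

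Levels are in CPM, the share of a gene in the sum of normalized counts over all genes of its library, scaled per 1000000, because the authors had normalized each tissue separately, and values are listed in the order of replicates 1, 2 and 3. A log2 fold change is PSC minus Nerve on the log2(CPM + 0.5) scale, ± its standard error, so a negative value means a higher level in Nerve, and this scale understates the change of genes with low levels. A gene passed the test, and is called higher in a tissue, at an adjusted p of at most 0.05 (limma across all genes, Benjamini-Hochberg) with a change of at least 2-fold. Nothing in the labels says that replicates were separate cultures or litters, so p-values measure the spread between these libraries. Where all 3 libraries of a tissue had no read, the fold is a lower bound against 3 reads over these libraries.

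Reads assigned to genes numbered 31900689 to 41632381 in the PSC libraries and 33501312 to 35756634 in the Nerve libraries, so that 3 reads equal 0.0721 to 0.0940 CPM, a limit that covers counting error only. Mitochondrial genes took 0.930% to 2.08% of the reads in PSC and 1.28% to 1.92% in Nerve. Nerve replicate 2 stood apart from the other Nerve libraries. Its summed level of noradrenergic genes was 48.2% of the mean of replicates 1 and 3 and that of synaptic genes 50.4%, while its proliferation genes were at 231% and its fibrillar collagens at 159.8%. In PSC replicate 3, interferon-induced genes among those of largest fold were at 21.9% to 46.1% of the mean of replicates 1 and 2. The part of these differences in the results was not tested beyond leaving libraries out. In bulk RNA, fewer cells of a type and less RNA per cell cannot be told apart.

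Of the 15721 genes, 2289 were higher in PSC (14.6%) and 3537 were higher in Nerve (22.5%), 37.1% in all. Every count of list or family members given below is to be read beside these shares. The side of the ganglion held more of the large differences. At least 8-fold differences numbered 355 toward PSC and 1337 toward Nerve, and at least 128-fold differences numbered 8 and 151. The median log2 fold change of all genes was -0.02, and 11447 genes reached a mean of 1 CPM in both tissues, 68.2% of which lay within 2-fold of each other. Another 456 genes reached 1 CPM in PSC alone and 1711 in Nerve alone. In 73.8% of all genes the libraries of the tissues did not overlap, a share far above that of genes passing the test, so absence of overlap by itself marked little here.

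**Figure D1:**
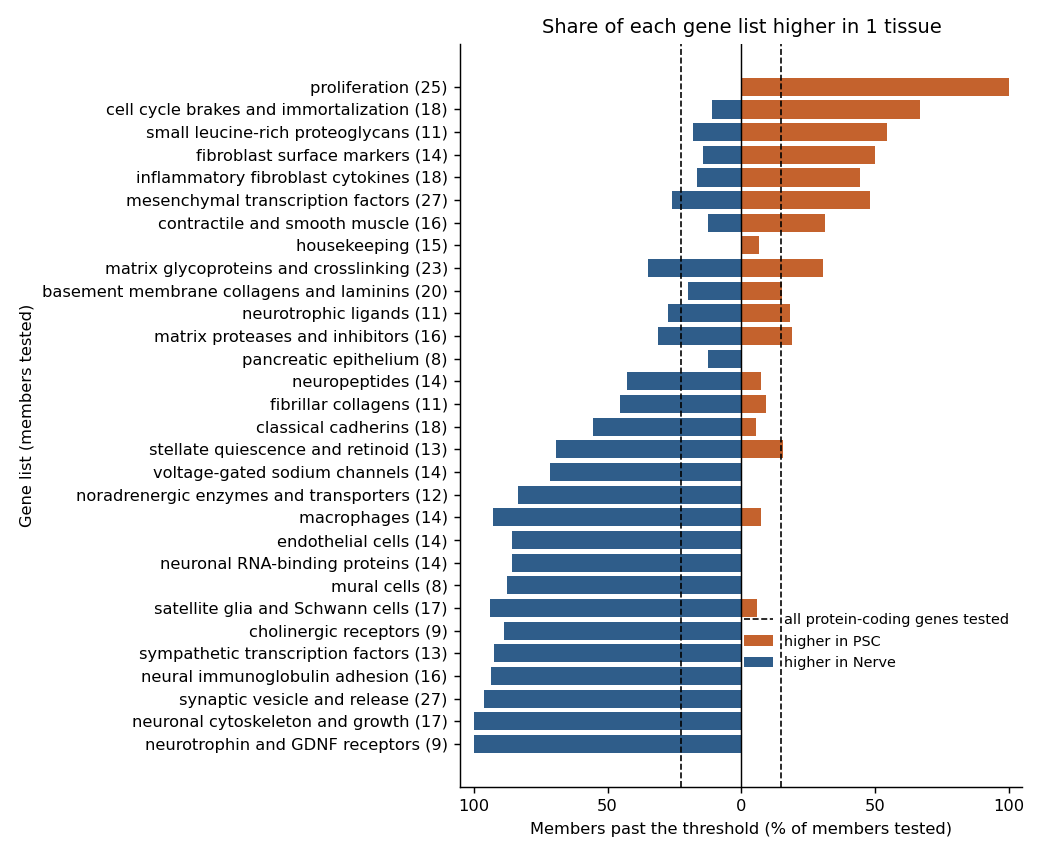
Percentage of the tested members of each of 30 gene lists with at least 8 members tested that were higher in PSC (to the right) or in Nerve (to the left), with dashed lines at the shares over all genes tested, 14.6% and 22.5%. All 25 proliferation genes lie on the PSC side and all 17 neuronal cytoskeleton genes on the Nerve side, and the matrix lists hold members of both.

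The genes for making, storing and retrieving noradrenaline were among the clearest marks of the ganglion. Of 12 such genes, 10 were higher in Nerve and 0 in PSC, beside 22.5% and 14.6% of all genes, with a median log2 fold change of -5.97, or -6.86 with the members listed at 0 in 1 tissue at their bound. Dbh, dopamine beta-hydroxylase, which converts dopamine to noradrenaline (chr2:27055245-27074212, plus strand, GRCm39), had the largest fitted fold of all genes with a mean of at least 50 CPM in a tissue. It stood at 1098, 629 and 1304 CPM in the Nerve libraries and 0.0240, 0.0313 and 0.0520 CPM in the PSC libraries (log2 fold change -10.82 ± 0.25, adjusted p = 3.8e-08). The PSC values are 1, 1 and 2 reads, so the line was at the limit of detection.

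Th, tyrosine hydroxylase, the rate-limiting first enzyme, had 554, 259.8 and 851 CPM in the Nerve libraries, no read in PSC replicates 1 and 2 and 0.104 CPM in replicate 3 (log2 fold change -9.87 ± 0.37, adjusted p = 2.9e-07). The noradrenaline transporter Slc6a2, which carries released transmitter back into the terminal, had 729.7, 482 and 1408 CPM in Nerve and at most 0.216 CPM in PSC (log2 fold change -10.40 ± 0.35, adjusted p = 1.7e-07). For these 3 genes Nerve replicate 2 was the lowest of its group, as it was for the summed list, and still lay far above every PSC library. Ddc, the decarboxylase between Th and Dbh, stood at 61.9 to 185 CPM in Nerve against 0.338 to 0.470 CPM (log2 fold change -6.96 ± 0.35, adjusted p = 1.3e-06). Slc18a2, which pumps amines into vesicles, had 57.9, 43.5 and 94.1 CPM in Nerve and 0 reads in PSC, at least 2433-fold higher. The cotransmitter Npy had 19.9, 9.40 and 29.1 CPM and 0 reads, at least 726-fold. Genes with a wider role differed less. Gch1 and Cyb561, which supply a cofactor and electrons to these enzymes, had log2 fold changes of -4.53 and -6.76. Maoa, which degrades amines in many tissues, stood at 97.9, 147 and 114 CPM in the PSC libraries and 306, 253 and 549.7 CPM in the Nerve libraries (log2 fold change -1.56 ± 0.28, adjusted p = 0.0014). Qdpr, which regenerates the cofactor, did not reach 2-fold (51.8 to 59.7 CPM in PSC, 73.0 to 106 CPM in Nerve).

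The bases before the Th start are shown with those of 2 secretory vesicle genes described later, Chgb and Scg2, because all 3 were at or near 0 in PSC and hold the same full cAMP response element. Each run is the 250 bases before the gene's start in the RefSeq table (GRCm38.p6), 5′ to 3′ on the gene's strand, with motif letters in capitals. TGACGTCA is the cAMP response element, and the other run of capitals in Th, nearer its 5′ end, is a match to the AP-1 pattern TGANTCA.
Th (chr7:142899996-142900245, minus strand): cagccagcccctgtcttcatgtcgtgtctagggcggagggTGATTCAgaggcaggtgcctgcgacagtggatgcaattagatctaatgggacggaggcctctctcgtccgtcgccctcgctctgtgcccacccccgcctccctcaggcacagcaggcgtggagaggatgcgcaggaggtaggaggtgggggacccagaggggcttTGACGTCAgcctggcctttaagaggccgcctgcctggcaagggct
Chgb (chr2:132781392-132781641, plus strand): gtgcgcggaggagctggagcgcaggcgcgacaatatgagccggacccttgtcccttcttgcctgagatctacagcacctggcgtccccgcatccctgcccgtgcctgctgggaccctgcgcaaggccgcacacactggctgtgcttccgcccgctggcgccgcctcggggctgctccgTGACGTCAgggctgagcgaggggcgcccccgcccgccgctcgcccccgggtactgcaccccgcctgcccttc
Scg2 (chr1:79440027-79440276, minus strand): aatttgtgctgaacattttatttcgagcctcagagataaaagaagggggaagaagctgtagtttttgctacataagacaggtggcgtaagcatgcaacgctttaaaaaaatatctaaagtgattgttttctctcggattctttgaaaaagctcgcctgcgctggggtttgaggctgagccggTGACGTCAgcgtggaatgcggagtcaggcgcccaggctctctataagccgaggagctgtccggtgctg
The response element lies 45 to 38 bases before the start in Th, 72 to 65 in Chgb and 68 to 61 in Scg2. On either strand, this element was found in 1.55% of the 32851 promoters of the table, in 2.36% of the 15574 promoters of genes tested, in 1.91% of the promoters of genes higher in PSC and in 2.28% of those of genes higher in Nerve. Among 28 promoters of the synaptic list 3 held it (Chgb, Scg2 and Syn1). The AP-1 pattern, whose letters the response element does not contain, was found in 6.75% of all promoters, in 5.04% of those of genes tested, in 6.74% of those of genes higher in PSC and in 5.80% of those of genes higher in Nerve. The CArG box, the element of serum response factor, was found in 1.47%, 1.21%, 1.35% and 1.18% of the same sets. A match describes letters and shows no binding. The table held a promoter for 356 of the 492 list genes.

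Transcription factors of the sympathetic lineage followed the same split, in part without a single read in the line. Of 13 factors, 12 were higher in Nerve and 0 in PSC (median -2.76, or -4.04 with the members listed at 0 in 1 tissue at their bound). Phox2a, a homeodomain factor of autonomic neurons, had 157, 73.3 and 164 CPM in Nerve, at least 4902-fold over the PSC libraries, which had 0 reads. Hand1, a basic helix-loop-helix factor, had 118, 62.9 and 219 CPM against 0 reads, at least 4972-fold. Other members of the list were not private to the ganglion. Hand2 stood at 22.1, 18.5 and 21.8 CPM in the PSC libraries and 165, 106 and 167 CPM in the Nerve libraries (log2 fold change -2.76 ± 0.19, adjusted p = 5.8e-06). Gata2, which helps maintain noradrenergic neurons, stood at 28.4, 27.7 and 30.6 CPM in the PSC libraries and 195, 96.0 and 323 CPM in the Nerve libraries (log2 fold change -2.64 ± 0.36, adjusted p = 0.00035). Its relative Gata3 stood at 9.56 to 11.3 CPM in PSC and 19.9 to 50.2 CPM in Nerve (-1.61). Meis1 did not differ by the test (27.9 to 39.5 CPM in PSC, 28.1 to 33.6 CPM in Nerve, log2 fold change 0.04 ± 0.16, adjusted p = 0.84), and 13.6% of its exon bases overlap another annotated gene on its strand.

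All 17 genes of the neuronal cytoskeleton and of axon growth were higher in Nerve, beside 22.5% of all genes, at a summed level of 8722 to 14302 CPM against 463 to 558 CPM. The median log2 fold change was -8.42, or -8.44 with the members listed at 0 in 1 tissue at their bound. Stmn2, a microtubule regulator of growing axons, stood at 1139.8, 685 and 1325 CPM in the Nerve libraries and 0.168, 0.0313 and 0 CPM in the PSC libraries (log2 fold change -10.81 ± 0.24, adjusted p = 3.8e-08). Prph, the intermediate filament protein peripherin of peripheral neurons, stood at 1935, 1001 and 2069 CPM in the Nerve libraries and 0.769, 0.658 and 0.364 CPM in the PSC libraries (log2 fold change -10.52 ± 0.28, adjusted p = 6.6e-08). Per kilobase of exon, Prph was the highest of these in Nerve, at 814 CPM per kb beside 466 for Stmn2 and 130.3 for Nefl, the light neurofilament chain. Gap43, a membrane protein of growth cones, had 816, 597 and 827 CPM in Nerve and 2.04, 1.50 and 1.38 CPM in PSC. Some members were also well expressed by the line. Dpysl3, a collapsin response mediator, stood at 231, 198 and 283 CPM in the PSC libraries and 2200.2, 1632 and 2522 CPM in the Nerve libraries (log2 fold change -3.15 ± 0.20, adjusted p = 4e-06). Map1b, which stabilizes axonal microtubules, had 137, 155 and 173 CPM in PSC and 2294, 1667 and 2824 CPM in Nerve (-3.83). Tubb3, neuronal beta-tubulin, had 53.5, 39.6 and 32.5 CPM in PSC and 1364, 725 and 1097 CPM in Nerve (-4.63). In Nerve, replicate 2 was the lowest library for every gene of this list.

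Of 27 genes of synaptic vesicles and transmitter release, 26 were higher in Nerve (median -5.34). The calcium sensor relative Syt4 stood at 898, 579 and 1118 CPM in the Nerve libraries and 0.600, 0.596 and 0.625 CPM in the PSC libraries (log2 fold change -9.56 ± 0.22, adjusted p = 3.8e-08). Syn2, which tethers vesicles, stood at 554, 330.2 and 946 CPM in the Nerve libraries and 0.240, 0.125 and 0.0520 CPM in the PSC libraries (log2 fold change -9.78 ± 0.34, adjusted p = 1.9e-07). Chgb, a granin that fills dense-core vesicles and whose start is shown above, had 261, 141 and 241 CPM in Nerve and at most 0.168 CPM in PSC (log2 fold change -8.42 ± 0.25, adjusted p = 1.1e-07). Scg2, of the same family, had 78.3, 31.1 and 164 CPM in Nerve and at most 0.312 CPM in PSC (log2 fold change -6.67 ± 0.51, adjusted p = 1.2e-05). Vamp2 and Stx1a, parts of the fusion machine, were present in the line at 40.8 to 61.8 and 13.1 to 20.8 CPM and differed less (-2.64 and -1.83). Nerve replicate 2 was the lowest Nerve library for every gene of this list except Sv2b, and the groups did not overlap for the genes given here.

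Receptors for acetylcholine, the transmitter that preganglionic fibers release onto these neurons, were close to 0 in the line. Of 9 genes, 8 were higher in Nerve, and their summed level was 234 to 512 CPM against 1.72 to 3.19 CPM. Chrna3, the main ganglionic nicotinic subunit, had 139.7, 91.3 and 192 CPM in Nerve and at most 0.0260 CPM in PSC (log2 fold change -8.05 ± 0.27, adjusted p = 1.7e-07). Its partners Chrnb4 and Chrnb2 had 17.9 to 75.6 and 40.1 to 72.6 CPM in Nerve. The muscarinic receptor Chrm3 was the exception, at 0.312 to 0.752 CPM in PSC and 0.0839 to 0.328 CPM in Nerve (log2 fold change 0.52 ± 0.21, adjusted p = 0.06). Among 14 voltage-gated sodium channel genes 10 were higher in Nerve and 0 in PSC, with a median log2 fold change of -2.68, or -2.78 with the members listed at 0 in 1 tissue at their bound. The auxiliary subunit Scn3b had 118 to 229.7 CPM against 0.188 to 0.504 CPM (log2 fold change -7.72 ± 0.26, adjusted p = 1.9e-07), and the pore-forming subunits Scn8a, Scn3a and Scn9a had log2 fold changes of -5.53, -5.38 and -4.88. Potassium channel genes, counted by the symbol Kcn, split 53 to 4 toward Nerve among 81 tested. Chosen after their values were seen, Kcna2 had a mean of 286 CPM in Nerve and no read in PSC. Kcnk2, chosen likewise, went the other way, at a mean of 22.7 CPM in PSC and 5.31 CPM in Nerve (log2 fold change 2.01 ± 0.18, adjusted p = 3.4e-05).

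Neuronal RNA-binding proteins and adhesion molecules were also mostly higher in the ganglion. Of 14 RNA-binding genes 12 were higher in Nerve. Celf3, a splicing regulator, had 173, 103 and 155 CPM in Nerve and 0 reads in PSC, at least 5360-fold, whereas the broadly used Rbfox2 had 267 to 329 CPM in PSC and 233 to 347 CPM in Nerve (log2 fold change 0.07 ± 0.16, adjusted p = 0.73). Of 16 immunoglobulin-type adhesion genes of nerve cells 15 were higher in Nerve (median -5.11, or -6.43 with the members listed at 0 in 1 tissue at their bound). L1cam, which guides and bundles axons, stood at 755, 643 and 856 CPM in the Nerve libraries and 0.336, 0.690 and 0.599 CPM in the PSC libraries (log2 fold change -9.50 ± 0.17, adjusted p = 2.2e-08). Ncam1 was less exclusive, at 45.2 to 68.5 CPM in PSC and 223 to 379 CPM in Nerve (-2.35), and Dscam did not pass the test (0.43 ± 0.26).

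Every one of the 9 receptor genes for neurotrophins and ligands of the GDNF family was higher in Nerve, at a summed level of 3022 to 3633 CPM against 52.2 to 112 CPM. Ngfr, the low-affinity neurotrophin receptor p75, which neurons and glia both carry, took most of these reads at 2190.3, 1915 and 1852 CPM, against 6.39, 3.92 and 2.16 CPM in PSC (log2 fold change -8.84 ± 0.29, adjusted p = 1.7e-07). Ret, the signalling receptor for GDNF ligands, had 431, 268 and 359 CPM against 0.721, 1.07 and 0.625 CPM (log2 fold change -8.07 ± 0.21, adjusted p = 6.3e-08). Nerve replicate 2 was lowest for Ret, and the Nerve libraries lay close together for Ngfr. The line did carry Gfra1, a coreceptor for GDNF, at 42.6, 82.3 and 34.4 CPM in the PSC libraries and 406, 399 and 244 CPM in the Nerve libraries (log2 fold change -2.77 ± 0.32, adjusted p = 0.00013). The call for Gfra2 (log2 fold change -1.06 ± 0.27, adjusted p = 0.0093) was lost at -0.97 without Nerve replicate 2 and at -0.76 without PSC replicate 3.

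The ligands showed no such split (median 0.18). Of 11, 2 were higher in PSC (18.2%) and 3 in Nerve (27.3%), near the 14.6% and 22.5% of all genes. Bdnf, a neurotrophin, did not pass the test, at 27.6, 21.4 and 32.1 CPM in the PSC libraries and 18.2, 28.2 and 18.5 CPM in the Nerve libraries (log2 fold change 0.33 ± 0.21, adjusted p = 0.22). Gdnf, the founding ligand of the receptor Ret, was higher in Nerve, at 34.8 to 66.3 CPM against 0.651 to 1.57 CPM. Its relative Artn was higher too, at 34.4 to 81.1 CPM against 0.781 to 2.28 CPM (log2 fold change -4.69 ± 0.39, adjusted p = 1.8e-05), as was the cytokine Lif (log2 fold change -1.67 ± 0.29, adjusted p = 0.0014). The members higher in PSC were Ctf1, at 2.24 to 3.86 CPM against 0.698 to 1.25 CPM, and Cntf, a glial factor whose log2 fold change of 1.01 fell short of 2-fold at 0.99, 0.93 and 0.97 without PSC replicate 1, PSC replicate 3 and Nerve replicate 1. Cntf shares 17.9% of its exon bases with another gene.

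Each of 21 pairs joined a gene taken as neuron-biased with a broadly used relative. Which cells of the explants carried the first member, such as Sparcl1 or Ldhb, was not tested. The ratio within the pair was higher in every Nerve library than in every PSC library in 19 and lower in 0. The median difference of the log2 ratio was 5.90. The difference came mostly from the neuron-biased member. It was higher in Nerve in 18 pairs, while the broadly used member was higher in PSC in 3 (Tubb6, Ptbp1 and Slc2a1) and higher in Nerve in 3, among them Dync1i2 and Tagln2. The largest difference, 9.98, was for the kinesins Kif1a and Kif1c, the first of which carries vesicle precursors along axons, with mean log2 ratios of -7.96 in PSC and 2.02 in Nerve. Both members switched in 2 pairs. For the beta-tubulins Tubb3 and Tubb6 the log2 ratio was -2.79 in PSC and 3.17 in Nerve, and for the glucose transporters Slc2a3 and Slc2a1 it was -6.16 and 2.07. The ranges overlapped in 2 pairs, 1 of them Dync1i1 over Dync1i2.

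**Figure D2:**
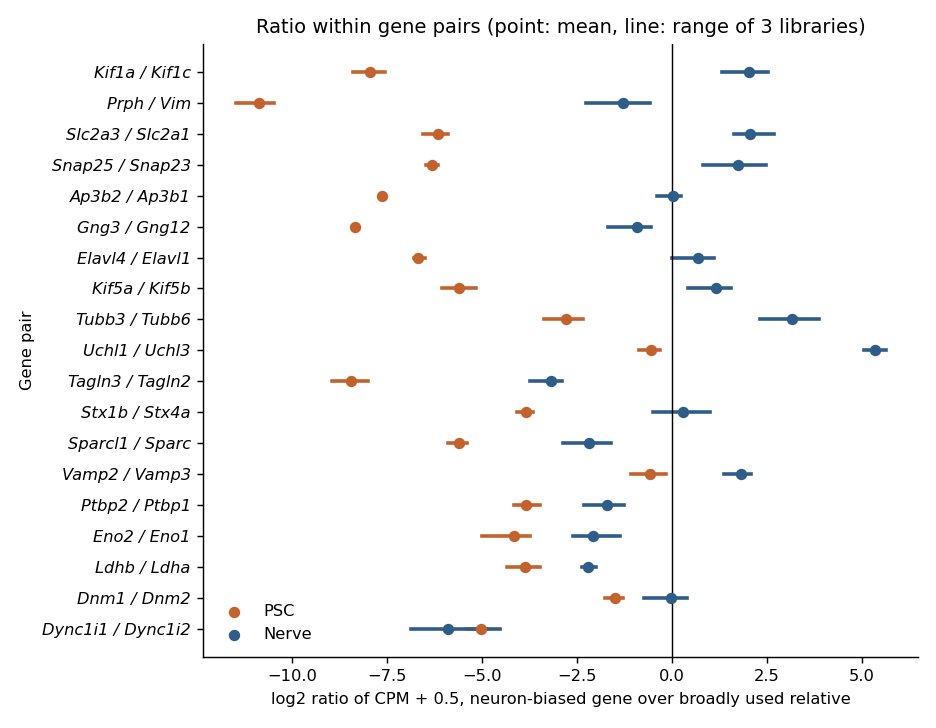
Log2 ratio of CPM + 0.5 of a gene taken as neuron-biased over its broadly used relative in 19 of the pairs. Points give the mean and lines the range of the 3 PSC or 3 Nerve libraries. The Nerve ranges lie to the right of the PSC ranges in 18 of these, and the gap is widest for Kif1a over Kif1c (difference 9.98).

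The ganglion libraries also carried the transcripts of its other cells. Of 17 markers of satellite glia and Schwann cells, 16 were higher in Nerve (median -5.47), with summed levels of 2367 to 3021 CPM against 186 to 233 CPM. Sox10, the transcription factor of neural crest and glia (chr15:79039108-79049469, minus strand, GRCm39), had 449, 433 and 317 CPM in Nerve and 0 reads in PSC, at least 14921-fold. Cdh19, a cadherin of the glial lineage, had 478, 511 and 408 CPM against 0.168, 0.345 and 0.130 CPM (log2 fold change -9.36 ± 0.16, adjusted p = 2.2e-08). Fabp7, a fatty acid binding protein of glia, had 78.0 to 151 CPM against 0.219 to 0.833 CPM (log2 fold change -6.78 ± 0.30, adjusted p = 5.8e-07). In contrast to the neuronal lists, the glial sum of Nerve replicate 2 was not the lowest, at 113% of the mean of the other Nerve libraries. Prx was the exception in PSC, at 19.2 to 26.2 CPM against 8.48 to 11.9 CPM (1.11), and it fell short of 2-fold (0.99) without PSC replicate 1.

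Macrophage genes were higher in Nerve for 13 of 14, at summed levels of 494 to 803 CPM against 33.4 to 36.2 CPM (median -4.24, or -5.13 with the members listed at 0 in 1 tissue at their bound). Lyz2, lysozyme, had 356, 507 and 247 CPM against 1.23, 0.658 and 0.416 CPM (log2 fold change -8.18 ± 0.30, adjusted p = 2.6e-07). The complement gene C1qb and the surface marker Adgre1 had 44.8 to 78.7 and 15.9 to 17.5 CPM against 0 reads. The exception was Cd14, a coreceptor for lipopolysaccharide that fibroblasts can also carry, at 23.8, 26.3 and 28.3 CPM in the PSC libraries and 2.45, 2.85 and 1.72 CPM in the Nerve libraries (log2 fold change 3.25 ± 0.21, adjusted p = 4.1e-06). Endothelial genes were low throughout, at a summed 144 to 169 CPM against 4.97 to 9.06 CPM, and 12 of 14 were higher in Nerve (10 without Nerve replicate 1). Emcn had 64.2 to 90.7 CPM and Cdh5 25.4 to 33.5 CPM in Nerve, whereas Pecam1 had 9.97, 3.80 and 2.44 CPM. Of 8 genes of mural cells, the pericytes and smooth muscle of vessels, 7 were higher in Nerve. Mcam stood at 17.2, 12.4 and 11.8 CPM in the PSC libraries and 983, 983 and 1033 CPM in the Nerve libraries (log2 fold change -6.15 ± 0.15, adjusted p = 4.4e-08). Rgs5, a pericyte marker, had 484, 97.0 and 304 CPM in Nerve and Abcc9, a potassium channel subunit, 251, 79.7 and 135 CPM, both lowest in replicate 2. How far these cells took part in any other difference was not tested.

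Genes of blood cells and of pancreatic epithelium were low. The epithelial list summed to 12.5 to 17.0 CPM in PSC and 25.4 to 28.3 CPM in Nerve. The blood cell list summed to 0.0260 to 0.120 CPM in PSC and 4.31 to 11.9 CPM in Nerve. Only 1 of 12 blood cell genes had enough reads to be tested (Kit, 4.22 to 11.7 CPM in Nerve), and hemoglobin genes were at 0 in PSC and at most 0.0559 CPM in Nerve. Of 18 genes of acinar, ductal and islet cells 8 were tested, and Pdx1, Ptf1a, Ins1 and Ins2 had 0 reads in all 6 libraries. The 1 member past the threshold was Gcg, at 1.19 to 1.45 CPM in Nerve and 0 reads in PSC.

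**Figure D3:**
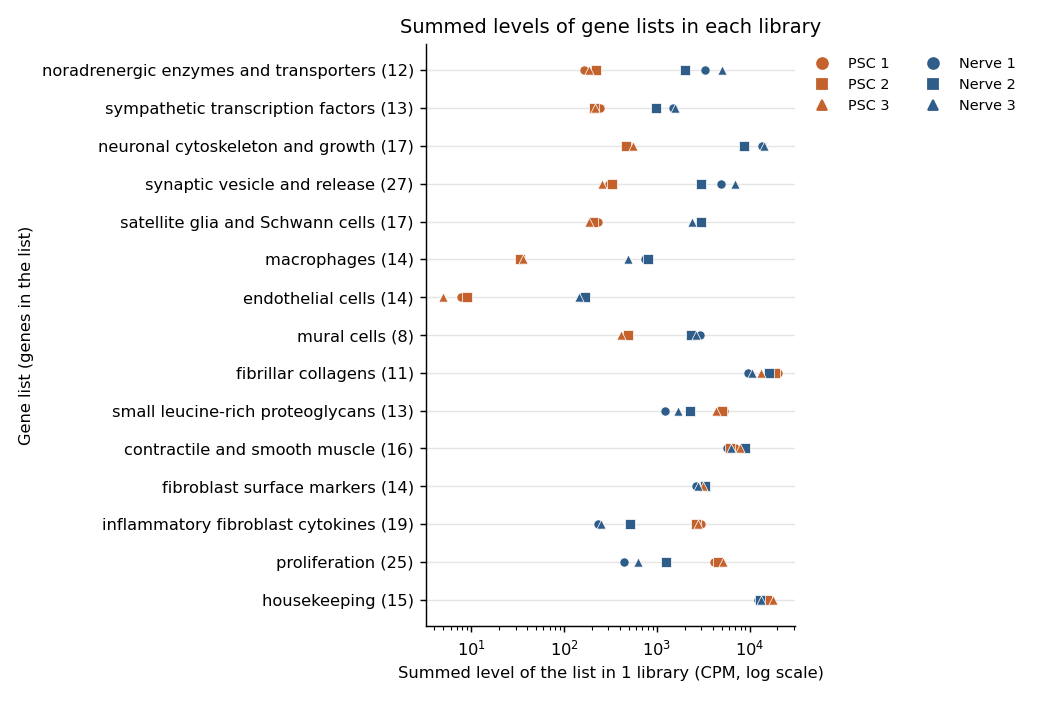
Summed level in CPM (log axis) of 15 gene lists, with 1 symbol per library for the 3 PSC and 3 Nerve libraries. The noradrenergic list sums to 2012 to 5004 CPM in Nerve and 166 to 219 CPM in PSC, and proliferation genes go the other way. Contractile and housekeeping lists lie close together, the contractile list with Vim and Tagln2 included.

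Fibroblast markers did not divide the tissues as neuronal markers did. Of 14 surface markers 7 were higher in PSC (50%) and 2 in Nerve (14.3%), beside 14.6% and 22.5% of all genes. The count for Nerve was 1 without PSC replicate 3, and the median log2 fold change was 1.06. Pdgfra, a receptor for platelet-derived growth factor, stood at 441, 290.0 and 281 CPM in the PSC libraries and 23.7, 53.7 and 27.2 CPM in the Nerve libraries (log2 fold change 3.32 ± 0.30, adjusted p = 3.2e-05). Pdpn, podoplanin, stood at 117, 128 and 152 CPM in the PSC libraries and 9.67, 16.2 and 8.06 CPM in the Nerve libraries (log2 fold change 3.55 ± 0.24, adjusted p = 5.4e-06). Ly6a, also called stem cell antigen, was among the genes of largest fold, at 385, 486 and 158 CPM in the PSC libraries and 1.43, 2.88 and 0.669 CPM in the Nerve libraries (log2 fold change 7.30 ± 0.47, adjusted p = 4.7e-06). Every PSC library lay above every Nerve library for these markers. Fap, fibroblast activation protein, went the other way, at 0.841, 0.784 and 0.599 CPM in the PSC libraries and 61.3, 57.5 and 53.0 CPM in the Nerve libraries (log2 fold change -5.54 ± 0.17, adjusted p = 1.5e-07). Pdgfrb, which mural cells share, had 352 to 410.2 CPM in PSC and 617 to 805 CPM in Nerve, under 2-fold (-0.92) with all libraries and past it (-1.02) without Nerve replicate 3.

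Contractile genes rise in activated stellate cells. The list of them had summed levels of 6135 to 7955 CPM in PSC and 5781 to 9014 CPM in Nerve. Both sums include Vim, an intermediate filament gene, at means of 2068 CPM in PSC and 3914 CPM in Nerve. They also include Tagln2, at means of 289 CPM in PSC and 682 CPM in Nerve. Both of these members lay higher in Nerve, so the closeness of the sums does not describe the other members. Of 16 genes 5 were higher in PSC (31.25%) and 2 in Nerve (12.5%), beside 14.6% and 22.5% of all genes. The first count ran from 2 without Nerve replicate 1 to 8 without Nerve replicate 2. Acta2, smooth muscle actin, stood at 958, 695 and 974 CPM in the PSC libraries and 93.7, 737 and 483 CPM in the Nerve libraries, with Nerve replicate 1 far below replicate 2 (log2 fold change 1.42 ± 0.65, adjusted p = 0.091). It passed without Nerve replicate 2 (2.02, adjusted p = 0.032). Tagln, transgelin, did not differ by the test, at 218, 159.8 and 228 CPM in the PSC libraries and 68.6, 455 and 285 CPM in the Nerve libraries (log2 fold change -0.06 ± 0.59, adjusted p = 0.94). Cnn1, calponin, stood at 42.6, 28.1 and 45.0 CPM in the PSC libraries and 0.866, 8.92 and 6.84 CPM in the Nerve libraries (log2 fold change 3.07 ± 0.64, adjusted p = 0.0035). Tpm2, a tropomyosin, stood at 375, 298 and 399 CPM in the PSC libraries and 32.4, 148 and 102 CPM in the Nerve libraries (log2 fold change 2.16 ± 0.47, adjusted p = 0.0044). In Nerve all 4 genes were lowest in replicate 1 and highest in replicate 2. Desmin (Des), a label of stellate cells in the pancreas, was at 3.87, 3.04 and 1.77 CPM in PSC and 1.64, 0.783 and 3.29 CPM in Nerve (log2 fold change 0.58 ± 0.42, adjusted p = 0.26).

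Genes of retinoid storage and of the quiescent stellate state lay mostly on the Nerve side, 9 of 13 against 2 (median -1.88). These shares, 69.2% and 15.4%, stand beside 22.5% and 14.6% of all genes. Lrat, which esterifies retinol for storage, had 0 reads in every PSC library and at most 0.149 CPM in Nerve and was not tested. Reln, reelin, which quiescent stellate cells of the liver also express, had 126, 135 and 126 CPM in Nerve and 0.0240, 0.0313 and 0.0260 CPM in PSC (log2 fold change -7.94 ± 0.16, adjusted p = 3.4e-08). The retinoic acid synthases divided. Aldh1a2 and Aldh1a3 were higher in Nerve (32.1 to 37.2 and 155 to 225 CPM against 0 to 0.0313 and 0.251 to 0.889 CPM), and Aldh1a1 was higher in PSC, at 9.49, 7.40 and 3.54 CPM in the PSC libraries and 0.0597, 0.280 and 0.0582 CPM in the Nerve libraries (log2 fold change 3.45 ± 0.35, adjusted p = 6.2e-05). Pparg, a lipid regulator tied to quiescence, was the other gene higher in PSC, at 12.3 to 14.5 CPM against 3.52 to 6.57 CPM (1.43).

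Collagen genes took a like share of the reads of both tissues, 1.99% to 2.71% in PSC and 2.42% to 3.19% in Nerve. Of 43 collagen genes tested, 7 (16.3%) were higher in PSC, near the 14.6% of all genes, and 14 (32.6%) in Nerve, beside 22.5% of all genes. Among the 11 fibrillar chains the counts were 1 and 5, and that for PSC became 2 without PSC replicate 3 or Nerve replicate 2. Col1a1, a chain of type I collagen, took more reads than any other protein-coding gene of the line by mean CPM, at 9639, 9233 and 6429 CPM in the PSC libraries and 1383, 3886 and 2532 CPM in the Nerve libraries (log2 fold change 1.80 ± 0.37, adjusted p = 0.0034). Its partner Col1a2 had 6631, 6508 and 4415 CPM against 2500.2, 4360.0 and 2444 CPM, under 2-fold with all libraries (0.95) and past it without Nerve replicate 2 (1.22) or PSC replicate 3 (1.14). Col3a1, a fibrillar chain of soft tissue, was higher in Nerve, at 1307, 843 and 651 CPM in the PSC libraries and 1416, 2276 and 1993 CPM in the Nerve libraries (log2 fold change -1.05 ± 0.28, adjusted p = 0.011), and its call was lost without Nerve replicate 2 (-0.91) or PSC replicate 3 (-0.82). Nerve replicate 2 held the most Col1a1, Col1a2 and Col3a1 of its group. The fibrillar chains Col5a3 and Col27a1 were higher in Nerve, Col5a3 at 356 to 423 CPM against 44.2 to 81.9 CPM and Col27a1 at 121 to 288 CPM against 11.4 to 29.9 CPM.

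The collagens of largest fold were not the fibrillar ones. Col18a1, the basement membrane collagen from which endostatin is cut, was among the 10 protein-coding genes of highest CPM in the ganglion, at 5843, 4525 and 3651 CPM in the Nerve libraries and 126, 109.7 and 92.5 CPM in the PSC libraries (log2 fold change -5.40 ± 0.20, adjusted p = 2.4e-07), 42.7-fold by mean CPM. Col15a1, its closest relative, stood at 513, 933 and 718 CPM in the Nerve libraries and 0.649, 0.188 and 0.208 CPM in the PSC libraries (log2 fold change -9.73 ± 0.26, adjusted p = 7.9e-08). Col10a1, a network collagen known from growth plate cartilage (chr10:34265971-34273081, plus strand, GRCm39), stood at 1239, 658 and 1369.5 CPM in the Nerve libraries and 0.721, 0.564 and 0.546 CPM in the PSC libraries (log2 fold change -9.87 ± 0.26, adjusted p = 6.6e-08). It is thus among the 12 genes of largest fold toward Nerve with the noradrenergic genes Dbh, Th and Slc6a2. In Nerve replicate 2 Col10a1 was the lowest of its group, as these were, and Col15a1 was the highest. Chosen after their values were seen, Col28a1, Col14a1 and Col25a1 were also higher in Nerve, at means of 462, 331 and 17.0 CPM against 0.853, 0.807 and 0.510 CPM.

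On the PSC side, the type IV chains Col4a5 and Col4a6, encoded head to head on the X chromosome, were both higher. Col4a5 stood at 394, 346 and 300.4 CPM in the PSC libraries and 15.9, 24.9 and 15.9 CPM in the Nerve libraries (log2 fold change 4.18 ± 0.19, adjusted p = 6.5e-07). Col4a6 stood at 98.4, 89.9 and 53.8 CPM in the PSC libraries and 0.597, 0.392 and 0.116 CPM in the Nerve libraries (log2 fold change 6.54 ± 0.30, adjusted p = 7e-07). The main type IV chain Col4a1 had 1532, 1471 and 1725 CPM in PSC and 2411, 3546 and 3577 CPM in Nerve, with a log2 fold change of -0.99 with all libraries and past 2-fold without Nerve replicate 1 (-1.18) or PSC replicate 3 (-1.06). The Nerve values lay above the PSC values for Col4a1 and below them for Col4a5 and Col4a6. Of 20 basement membrane genes 3 were higher in PSC (15%) and 4 in Nerve (20%), near the 14.6% and 22.5% of all genes. The count for Nerve ran from 3 to 6 with single libraries left out. Laminin chains Lama2 and Lama4, which Schwann cells and vessels deposit, were at 71.0 to 143 and 232 to 371 CPM in Nerve against 12.6 to 18.6 and 17.3 to 45.1 CPM (log2 fold changes -2.75 and -3.39), while Lamb1, Lamc1 and the linker Nid1 had log2 fold changes of -0.10, 0.26 and -0.24.

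**Figure D4:**
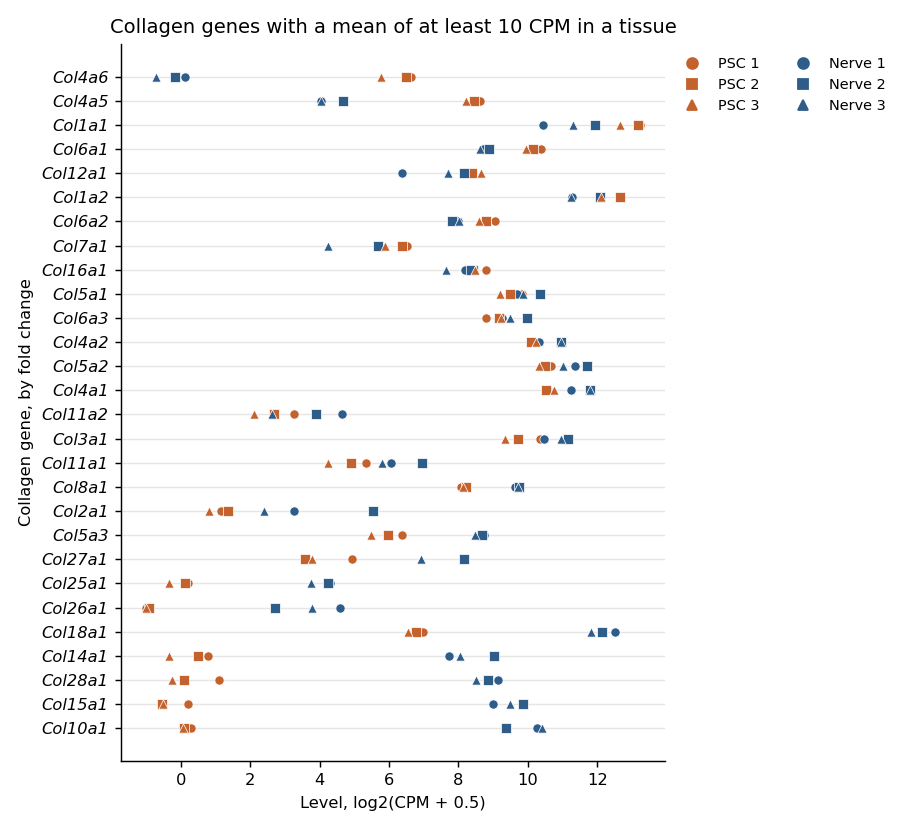
Level, as log2(CPM + 0.5), of 28 collagen genes with a mean of at least 10 CPM in a tissue, with 1 symbol per library for the 3 PSC and 3 Nerve libraries, in order of the log2 fold change. Col10a1 and Col15a1 sit at one end, with Nerve far above PSC, and Col4a6 and Col4a5 at the other.

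Other matrix genes also divided within families. Of 11 small leucine-rich proteoglycans 6 were higher in PSC (54.5%) and 2 in Nerve (18.2%), with a median of 1.57. Biglycan, Bgn, stood at 4567, 4498 and 3941 CPM in the PSC libraries and 1007, 2014 and 1443 CPM in the Nerve libraries (log2 fold change 1.60 ± 0.26, adjusted p = 0.00082). Decorin, Dcn, stood at 421, 312 and 217 CPM in the PSC libraries and 75.0, 84.0 and 85.5 CPM in the Nerve libraries (log2 fold change 1.90 ± 0.22, adjusted p = 0.00011). Lumican, Lum, of the same family, went the other way, with 0.937, 0.219 and 0.0520 CPM in PSC and 25.2, 25.2 and 42.0 CPM in Nerve (log2 fold change -5.20 ± 0.38, adjusted p = 9.1e-06). Of 23 matrix glycoproteins and crosslinking enzymes 7 were higher in PSC (30.4%) and 8 in Nerve (34.8%), beside 14.6% and 22.5% of all genes. The first count was 5 without Nerve replicate 1 and 9 without Nerve replicate 2. Periostin, Postn, which the matrix of injured tissue holds in quantity, was among the 10 protein-coding genes of highest CPM in the ganglion, at 4111, 3939 and 3110.0 CPM in the Nerve libraries and 190.2, 265 and 210.4 CPM in the PSC libraries (log2 fold change -4.07 ± 0.18, adjusted p = 5.2e-07). Fn1, fibronectin, did not reach 2-fold, at 4261 to 5584 CPM in PSC and 2325 to 3057 CPM in Nerve (0.81).

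The lysyl oxidases, which crosslink collagen and elastin, did not differ in 1 direction. Lox stood at 525, 422 and 310.3 CPM in the PSC libraries and 45.4, 137 and 93.7 CPM in the Nerve libraries (log2 fold change 2.28 ± 0.37, adjusted p = 0.00085). Loxl4 was likewise higher in PSC, at 121, 131 and 137 CPM against a mean of 9.06 CPM in Nerve (log2 fold change 3.81 ± 0.21, adjusted p = 2e-06). Loxl2 was higher in Nerve, at 40.7, 23.9 and 20.4 CPM in the PSC libraries and 118, 203 and 211 CPM in the Nerve libraries (log2 fold change -2.64 ± 0.29, adjusted p = 0.0001). Versican, Vcan, a large proteoglycan of loose matrix, was higher in PSC (413 to 509 CPM against 38.7 to 112 CPM, 2.87), and the elastic fiber genes Fbn2 and Eln were higher in Nerve (-6.36 and -3.14). Among 16 matrix proteases and inhibitors 3 were higher in PSC (18.75%) and 5 in Nerve (31.25%), beside 14.6% and 22.5% of all genes. The membrane-bound collagenase Mmp14 and its substrate Mmp2 were higher in Nerve, at 617 to 835 and 570.2 to 851 CPM against 218 to 343 and 146 to 269.9 CPM, and Mmp23 and Mmp3, stromelysin, were higher in PSC (4.42 and 3.38). The tissue inhibitors Timp1, Timp2 and Timp3 had log2 fold changes of 0.18, 0.87 and -0.45, none past 2-fold.

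Several secreted signals were higher in the line. Grem1, gremlin, an antagonist of bone morphogenetic proteins (chr2:113576509-113589000, minus strand, GRCm39), stood at 2148, 1757 and 1853 CPM in the PSC libraries and 16.1, 16.2 and 7.30 CPM in the Nerve libraries (log2 fold change 7.21 ± 0.27, adjusted p = 3e-07), 146-fold by mean CPM. A list of genes of inflammatory fibroblasts held mostly cytokines, and also the receptor Il1rl1, Has1, Has2, Saa3 and Lcn2. Of 18 tested, 8 were higher in PSC and 3 in Nerve (median 0.29, or 1.29 with the members listed at 0 in 1 tissue at their bound). The summed level of the list was 2639 to 2999.7 CPM against 235 to 508 CPM. Cxcl12, a chemokine that stroma makes for lymphocytes, stood at 1556, 1155 and 979 CPM in the PSC libraries and 13.2, 19.1 and 8.15 CPM in the Nerve libraries (log2 fold change 6.51 ± 0.29, adjusted p = 5.9e-07). Csf1, the growth factor of macrophages, stood at 859, 698 and 985 CPM in the PSC libraries and 78.4, 311 and 153 CPM in the Nerve libraries (log2 fold change 2.43 ± 0.42, adjusted p = 0.0013). The monocyte attractants Ccl2 and Ccl7 had 189 to 239 and 155 to 187 CPM in PSC against 11.9 to 40.9 and 2.57 to 17.8 CPM. Il6, which defines the inflammatory state in many studies, was low in both tissues, at 1.97, 1.72 and 0.885 CPM in PSC and 0.776, 1.51 and 1.45 CPM in Nerve (log2 fold change 0.20 ± 0.30, adjusted p = 0.59). Il11 and Ccl11 were higher in Nerve, at 2.32 to 5.64 and 16.9 to 35.8 CPM against 0.312 to 0.456 and 0.677 to 3.55 CPM.

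Receptor Il1rl1, which binds interleukin 33, was among the 12 genes of largest fold toward PSC, at 135, 282 and 267 CPM in the PSC libraries and 0.448, 1.87 and 0.0873 CPM in the Nerve libraries (log2 fold change 7.63 ± 0.49, adjusted p = 4.4e-06), while the ligand Il33 had 3.54 to 5.20 CPM in PSC and 3.34 to 9.23 CPM in Nerve (-0.29). Cholecystokinin, Cck, a gut and brain peptide (chr9:121315695-121324863, minus strand, GRCm39), had the second largest fold of that set, at 96.9, 107 and 184 CPM in the PSC libraries and 0.0895, 0.224 and 0.0582 CPM in the Nerve libraries (log2 fold change 7.65 ± 0.26, adjusted p = 1.9e-07). It was the 1 member of 14 neuropeptide genes tested that was higher in PSC. In Nerve 6 were higher, among them Npy, Cartpt at 14.6 to 33.8 CPM and Vip at 2.39 to 4.18 CPM.

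Of the 12 genes of largest fold toward PSC, 6 are known to be induced by interferon (Ifi44, Cxcl10, Usp18, Isg15, Oas3 and Apol9b). They were grouped after their values were seen, and no list of such genes was counted or tested. Isg15, a ubiquitin-like protein, stood at 414, 611 and 144 CPM in the PSC libraries and 1.88, 1.45 and 3.05 CPM in the Nerve libraries (log2 fold change 7.03 ± 0.48, adjusted p = 6.1e-06). Ifi44 stood at 195, 288 and 57.4 CPM in the PSC libraries and 0, 0.112 and 0.233 CPM in the Nerve libraries (log2 fold change 7.93 ± 0.52, adjusted p = 4.9e-06). All 6 were lowest in PSC replicate 3, at 21.9% to 46.1% of the mean of replicates 1 and 2, and even there lay above every Nerve library. Prl2c2, a proliferin of the prolactin family, varied in the opposite sense, at 52.6, 49.9 and 293 CPM in the PSC libraries and 0.269, 0.615 and 0.0291 CPM in the Nerve libraries (log2 fold change 6.91 ± 0.64, adjusted p = 3.5e-05), with its highest level in PSC replicate 3.

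All 25 proliferation genes were higher in PSC, beside 14.6% of all genes, with a median log2 fold change of 2.79 and summed levels of 4137 to 5185 CPM against 443 to 1244 CPM. Mcm2, a subunit of the helicase needed to begin DNA replication, stood at 297, 340.2 and 343 CPM in the PSC libraries and 19.3, 43.2 and 33.2 CPM in the Nerve libraries (log2 fold change 3.41 ± 0.25, adjusted p = 1e-05). Mki67, the proliferation antigen, stood at 325, 386 and 459 CPM in the PSC libraries and 29.5, 143 and 52.6 CPM in the Nerve libraries (log2 fold change 2.66 ± 0.48, adjusted p = 0.0016). The Nerve libraries were not at 0 for these genes, and replicate 2 was the highest of them. Rrm2, a subunit of ribonucleotide reductase, had the smallest log2 fold change of the list (log2 fold change 1.55 ± 0.52, adjusted p = 0.031). Its limma call was the 1 lost with a library left out, at adjusted p-values of 0.056, 0.066 and 0.11 without PSC replicates 1, 2 and 3 and of 0.089 and 0.087 without Nerve replicates 1 and 3.

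A list of regulators of the cell cycle and of immortalization, which holds brakes and drivers alike, had 12 of 18 genes higher in PSC and 2 in Nerve (median 1.31). Cdkn2a, which encodes the inhibitors p16INK4a and p19ARF and is often lost when cells become immortal, stood at 331, 342 and 279 CPM in the PSC libraries and 1.79, 3.89 and 1.66 CPM in the Nerve libraries (log2 fold change 6.83 ± 0.26, adjusted p = 2.9e-07). Trp53 stood at 238, 272 and 278 CPM in the PSC libraries and 77.4, 90.6 and 62.4 CPM in the Nerve libraries (log2 fold change 1.78 ± 0.15, adjusted p = 1.9e-05). Its target Cdkn1a, an inhibitor of cyclin-dependent kinases, had 384, 371 and 334 CPM in PSC and 117, 129 and 138 CPM in Nerve (log2 fold change 1.50 ± 0.11, adjusted p = 1e-05), and its inhibitor Mdm2 had a log2 fold change of 1.72. Tert, the telomerase subunit, had 14.3, 14.6 and 11.5 CPM in PSC and 3.34, 2.96 and 2.30 CPM in Nerve (log2 fold change 2.06 ± 0.21, adjusted p = 5.9e-05). Drivers higher in PSC, with their log2 fold changes, were the proto-oncogene Myc (1.10), the cyclin Ccnd2 (1.31) and the kinase Cdk6 (1.02). All 3 calls were lost with a library left out, that of Myc without Nerve replicate 2 (0.91) or PSC replicate 3 (0.96) and those of Ccnd2 and Cdk6 without Nerve replicate 1 (0.85 and 0.75). The 2 members higher in Nerve were Rb1, at 37.6 to 44.3 CPM against 11.6 to 14.5 CPM, and Mycn, a proto-oncogene of neural crest cells, at 58.5, 30.7 and 41.5 CPM against 0.0480, 0.0627 and 0.0260 CPM (log2 fold change -6.29 ± 0.26, adjusted p = 4.6e-07).

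Transcription factors of the mesenchyme were divided, with 13 of 27 higher in PSC and 7 in Nerve (median 0.57, or 1.18 with the members listed at 0 in 1 tissue at their bound). These are 48.1% and 25.9%, the second near the 22.5% of all genes. Foxf1, a forkhead factor of gut and lung mesenchyme, stood at 37.5, 25.0 and 29.1 CPM in the PSC libraries and 0.448, 0.420 and 0.466 CPM in the Nerve libraries (log2 fold change 5.02 ± 0.22, adjusted p = 5.2e-07). Gata4, a zinc finger factor of gut and heart, had 12.3, 17.7 and 12.5 CPM in PSC and 0, 0 and 0.0291 CPM in Nerve (log2 fold change 4.83 ± 0.23, adjusted p = 8.9e-07). Osr1, Twist2 and Prrx2 also lay on this side (3.51, 2.98 and 2.99). Tbx2 and Tbx3, T-box factors, were higher in Nerve at 65.1 to 104 and 82.4 to 153 CPM against 1.41 to 1.97 and 5.96 to 9.97 CPM, as were Meox1 and Meox2 (-3.56 and -4.57) and Zeb2 (-2.36). Pax3, a paired-box factor of neural crest and muscle precursors, was higher in the line, at 53.4, 64.9 and 58.9 CPM in the PSC libraries and 0.0298, 0.0280 and 0 CPM in the Nerve libraries (log2 fold change 6.84 ± 0.19, adjusted p = 8.7e-08), and is 1 of the 12 genes of largest fold toward PSC.

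The Hox genes, which record position along the body axis, were mostly higher in PSC where they differed. Of 39 members 32 had enough reads, and 20 of these were higher in PSC and 0 in Nerve, beside 14.6% and 22.5% of all genes (median 1.50, or 2.13 with the members listed at 0 in 1 tissue at their bound). The difference lay in the central and posterior genes. Groups 1 to 4, the anterior genes, summed to 97.9 to 130.3 CPM in PSC and 68.0 to 82.1 CPM in Nerve, and 4 of 11 were called. Groups 5 to 8 summed to 164 to 201 CPM against 11.9 to 16.3 CPM, with 10 of 11 called. Groups 9 to 13 summed to 118 to 133 CPM against 0.806 to 1.68 CPM, with 6 of 10 called and 6 of 10 at 0 reads in all Nerve libraries.

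Hoxb9 took most reads of the posterior genes, at 116, 117 and 101 CPM in the PSC libraries and 0.567, 1.51 and 0.553 CPM in the Nerve libraries (log2 fold change 6.41 ± 0.26, adjusted p = 4e-07). Hoxb6, of the central genes, stood at 47.6, 43.6 and 37.1 CPM in the PSC libraries and 0.418, 0.979 and 0.204 CPM in the Nerve libraries (log2 fold change 5.45 ± 0.29, adjusted p = 1.5e-06). Hoxa7 had 7.66, 7.27 and 5.49 CPM in PSC and 0 reads in Nerve, at least 235-fold. Hoxc13, the last gene of its cluster, had 9.42, 9.97 and 12.1 CPM in PSC and 0.0298, 0.0559 and 0.0291 CPM in Nerve (log2 fold change 4.34 ± 0.21, adjusted p = 9.7e-07). The anterior gene Hoxc4 showed no such difference, at 21.4, 22.5 and 21.2 CPM in the PSC libraries and 28.2, 16.5 and 48.3 CPM in the Nerve libraries (log2 fold change -0.37 ± 0.32, adjusted p = 0.35). Hoxb2 stood at 12.7 to 14.6 CPM in PSC and 9.22 to 10.1 CPM in Nerve (0.46). By cluster, 6 of 9 Hoxa, 8 of 10 Hoxb and 6 of 9 Hoxc genes were higher in PSC, whereas 0 of the 4 Hoxd genes tested passed. Hoxd8 stood at 2.76, 2.85 and 4.71 CPM in the PSC libraries and 3.70, 2.91 and 4.39 CPM in the Nerve libraries, and Hoxd3, Hoxd4 and Hoxd9 were under 1 CPM in all libraries. Hoxd3 and Hoxd4 lay higher in Nerve with no overlap of the groups but under 2-fold on this scale (log2 fold change -0.90 ± 0.18, adjusted p = 0.0028, and log2 fold change -0.93 ± 0.14, adjusted p = 0.00051). Both passed toward Nerve with a pseudocount of 0.1 CPM (-2.21 and -2.09), in edgeR (-3.84 and -3.40) and in DESeq2 (-4.02 and -3.50), Hoxd3 also without Nerve replicate 3 (-1.01) and Hoxd9 in edgeR (-1.98). Hoxd3 and Hoxd4 share 37.8% and 44.7% of their exon bases with other genes on their strand, so their values are uncertain.

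**Figure D5:**
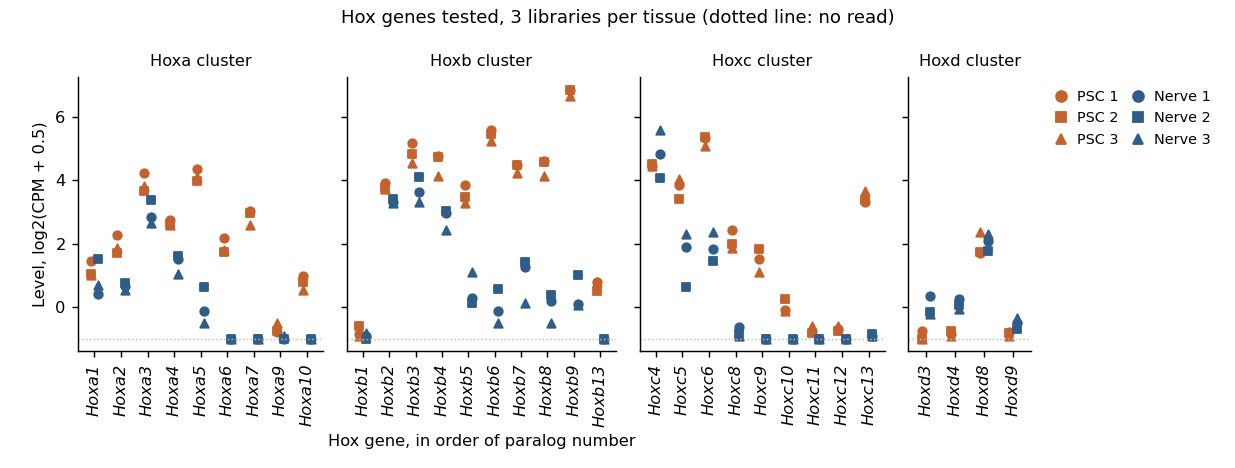
Level, as log2(CPM + 0.5), of the 32 Hox genes tested in the 3 PSC and 3 Nerve libraries, in 4 panels by cluster and in order of paralog number, with a dotted line where a gene has no read. In the Hoxa, Hoxb and Hoxc clusters the tissues lie near each other for the first genes and the Nerve libraries fall toward the line in the later groups, where the PSC values of Hoxb9 are 101 to 117 CPM.

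The clustered protocadherins, adhesion proteins whose combinations differ between neurons, lay on the Nerve side, with 47 of 57 tested higher in Nerve and 2 in PSC (median -2.33, or -2.36 with the members listed at 0 in 1 tissue at their bound). The clusters were not alike. All 13 alpha genes were higher in Nerve, at summed levels of 46.2 to 112 CPM against 1.13 to 1.20 CPM, and 12 of them were at or under 0.1 CPM in every PSC library. Of 22 beta genes 20 were higher in Nerve, at 124.6 to 138 CPM against 14.5 to 28.6 CPM. The gamma genes summed to 380.02 to 445 CPM in Nerve and 275 to 363 CPM in PSC, with 14 of 22 higher in Nerve and 2 in PSC. Most of both sums was Pcdhgc3, at means of 238 CPM in PSC and 234 CPM in Nerve. The gamma sums thus do not describe the other members. Alpha and gamma genes share 47.7% to 60.0% and 40.5% to 46.4% of their exon bases with other genes on their strand, so values of single members are uncertain, and the beta genes share at most 9.67%.

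Single cadherins and the Sox factors added contrasts within families. Of 18 classical cadherins tested 10 were higher in Nerve and 1 in PSC. Cdh2, N-cadherin, was abundant in both, at 126, 127 and 160.1 CPM in the PSC libraries and 425, 527 and 305 CPM in the Nerve libraries (log2 fold change -1.57 ± 0.20, adjusted p = 0.00022). Cdh11, the cadherin of mesenchyme, did not differ by the test (189 to 241 CPM in PSC, 159 to 265 CPM in Nerve, log2 fold change -0.06 ± 0.20, adjusted p = 0.81). Cdh3, placental cadherin, was the member higher in PSC (2.38), and that count became 2 without PSC replicate 2. Of 17 Sox genes 9 were higher in Nerve. Beside Sox10 these included Sox2 and Sox6, at 45.2 to 69.5 and 55.0 to 83.4 CPM against 0.0961 to 0.564 and 0.0313 to 0.156 CPM, and Sox13 (-6.55). The 1 Sox gene higher in PSC was Sox9, a factor of chondrocytes and of pancreatic ducts, at 43.0, 45.7 and 51.4 CPM in the PSC libraries and 16.6, 26.2 and 13.7 CPM in the Nerve libraries (log2 fold change 1.34 ± 0.22, adjusted p = 0.00096). Keratins were low in both tissues. Of 53 members 21 were tested. In PSC 2 were higher (Krt80 at 7.97 to 12.3 CPM and Krt13 at 1.44 to 3.49 CPM). In Nerve 3 were higher (Krt222, Krt90 and Krt79), among which Krt222 had 2.94 to 9.14 CPM. These shares, 9.52% and 14.3%, lie below the 14.6% and 22.5% of all genes. Krt17 also passed, toward Nerve, without Nerve replicate 2 (-1.13), Nerve replicate 3 (-1.14) or PSC replicate 1 (-1.03).

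A stricter view asked which genes were present in a tissue at a mean of at least 10 CPM and at no more than 0.1 CPM in every library of the other, as a description without a test. For Nerve 326 genes met it (2.07% of those tested) and for PSC 15 genes did (0.0954%). Of the 326 genes, 139 had no read in any PSC library, 52 belonged to the lists above, and their median level was 29.4 CPM, up to Dbh at a mean of 1010.4 CPM. By this measure the line had few transcripts that the ganglion lacked, and the ganglion had many that the line lacked. The 15 genes of the line included, named after their values were seen, the transcription factors Pax3, Nkx2-3, Irx1, Vax2, Gata4 and Hoxc13, the cornified envelope genes Lce1g, Sprr2k and Sprr2g, the interferon-induced Ifi206 and Oas1g, and Klra4, Ces2e and Gm4841. Their median level was 18.7 CPM. Nkx2-3, a homeobox factor of gut and spleen mesenchyme, had a mean of 42.5 ± 4.26 CPM (SD, n = 3) in PSC and no read in Nerve, at least 1467-fold. Lce1g had 56.9 ± 60.7 CPM (SD, n = 3), a spread larger than its mean.

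Some of the most abundant transcripts were shared. Eef1a1, a translation factor, stood at 7050.0, 6445 and 7839 CPM in the PSC libraries and 6118, 6609 and 7157 CPM in the Nerve libraries (log2 fold change 0.10 ± 0.22, adjusted p = 0.72). Sparc, a collagen-binding matrix protein, stood at 3117, 2858 and 2679 CPM in the PSC libraries and 2744, 4261 and 3235 CPM in the Nerve libraries (log2 fold change -0.22 ± 0.21, adjusted p = 0.4). Neither passed the test, nor did mt-Co1, a mitochondrial oxidase subunit (-0.01 ± 0.36). Vim, vimentin, was abundant in both, at 1816, 1913 and 2477 CPM in PSC and 3857, 4821 and 3064 CPM in Nerve (-0.91), and passed 2-fold without Nerve replicate 3 (-1.07) or PSC replicate 3 (-1.05). Gnas, a G protein subunit transcribed from an imprinted locus, was among the 10 genes of highest CPM in the ganglion, at 4057, 2898 and 4243 CPM in the Nerve libraries and 976, 991 and 982 CPM in the PSC libraries (log2 fold change -1.90 ± 0.19, adjusted p = 4.7e-05). Of 15 housekeeping genes 1 passed the test, B2m, the light chain of class I molecules, at 1027, 1222 and 687 CPM in the PSC libraries and 333, 304 and 265 CPM in the Nerve libraries (log2 fold change 1.67 ± 0.21, adjusted p = 0.00021). Its PSC level was lowest in replicate 3, as were the interferon-induced genes. Of the 78 ribosomal protein genes tested 3 were higher in PSC (3.85%) and 0 in Nerve, below the 14.6% and 22.5% of all genes.

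Genes of the sex chromosomes described the source of the material. Ddx3y, Kdm5d, Uty and Eif2s3y, on the Y chromosome, had 0 reads in every PSC library, and Ddx3y had 20.8, 39.1 and 24.8 CPM in Nerve. Xist, transcribed from the inactive X chromosome, was read in all 6 libraries, at 477, 400.4 and 375 CPM in the PSC libraries and 386, 265 and 233 CPM in the Nerve libraries (log2 fold change 0.53 ± 0.19, adjusted p = 0.044). The pooled ganglia thus held transcripts of both kinds, and the line held Xist without Y-linked transcripts.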

How the data were processed

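RNA of untreated cultures was sequenced as 3 PSC and 3 Nerve libraries (TruSeq stranded mRNA, Illumina). Per the submitters' processing notes, reads were aligned with STAR 2.7.10b and normalized in R 4.2.2 with DESeq2 1.38.3. The study's methods state that reads were counted by strand over GENCODE genes of the mouse genome. The authors deposited tables of normalized counts per gene, read counts divided by size factors (a signal scale), normalized separately for the 2 tissues. The tables were joined by Ensembl identifier, and 0 value columns belonged to no sample. All values (100%, tolerance 0.01) were whole multiples of 1 read, which gave the read totals.

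Each value was divided by its library's sum over all 56941 genes to give CPM. Genes of every biotype with a summed normalized count of at least 10, 22887 in all, were tested with limma 3.58.1 (R 4.3.3) on log2(CPM + 0.5). Benjamini-Hochberg adjustment ran over all of them, with thresholds of an adjusted p of 0.05 and 2-fold. Counts and shares are over the 15721 protein-coding genes among them. The test was checked on simulated data. Tables and figures were made with Python 3.11.15. Levels per kilobase and shared exon bases used GENCODE annotation of GRCm39. The genes named were members of gene lists, pairs and the Hox, Krt, Pcdh and Sox families, the 12 of largest fold per tissue and the 10 of highest CPM per tissue; others are marked. The members and lists were chosen with earlier results of these data known. Alternatives were other scalings, pseudocounts, filters, edgeR and DESeq2 on the recovered reads, and each library left out. Some items are not reported here.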

Additional observations from a re-analysis of the deposited data

How the results depend on the processing

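The counts of 2289 genes higher in PSC and 3537 higher in Nerve stayed within 1.5 times under the other scalings, pseudocounts, filters and tests. Outside that range lay the count without the fold threshold (adjusted p alone, 4987 and 5534 genes) and that at 8-fold (355 and 1337 genes). With pseudocounts of 0.1 and 2 CPM the counts were 2627 and 4122 genes and 1933 and 2844 genes. On the recovered reads edgeR 4.0.16 gave 2312 and 4405 genes and DESeq2 1.42.0 2266 and 4445 genes. The median log2 fold change of all genes, -0.02, moved to -0.12 with TMM, -0.13 with median-of-ratios, -0.15 in edgeR and -0.17 in DESeq2, and to 0.09 with quantile normalization and 0.04 with the deposited values as they are. PSC held 33.8% to 47.3% of the calls across these settings (39.3% as reported). Leaving out 1 library gave 2198 to 2440 genes higher in PSC and 3402 to 3622 higher in Nerve. Without Nerve replicate 2 and PSC replicate 3 together, an alternative chosen after seeing the data, the counts were 2485 and 3504 genes.

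Of 785 genes of the lists, pairs, families and ranked sets 550 passed the threshold, and 0 of these changed direction under these alternatives. Below the threshold fell 41 with 1 library left out and 84 under another alternative, 66 of them with a pseudocount of 2 CPM, and 37 genes stood in both counts. Deviations of libraries of the same number had correlations of 0.23, -0.059 and 0.10, beside -0.26 to 0.13 for libraries of unlike number. Deviations from a mean of 3 libraries depend on each other, so these values cannot show whether libraries were paired. They were not treated as pairs. A fit with the replicate number as a block gave 2291 and 3543 genes, sharing 5821 of the calls, and 5 were lost. Genes under about 0.1 CPM rest on a few reads and show no more than low levels.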

Other observations

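Families of genes were also counted by symbol alone. Semaphorins, which guide axons and vessels, had 14 of 20 genes higher in Nerve and 2 in PSC. Genes with the symbol Gri, mostly glutamate receptors, had 15 of 19 higher in Nerve and 1 in PSC, and calcium channel genes (Cacn) 15 of 23 and 2. Synaptotagmins had 13 of 17 higher in Nerve and 1 in PSC. Integrins, the receptors for matrix, had 14 of 24 higher in Nerve and 4 in PSC. Zinc finger genes (Zfp) had 48 of 341 higher in Nerve and 17 in PSC (14.1% and 4.99%). Histone genes had 6 of 41 higher in Nerve and 1 in PSC (14.6% and 2.44%). Most histone genes were near the floor in these mRNA libraries, with 6 of 73 members at a mean of at least 1 CPM in PSC and 9 in Nerve. Genes with the symbol Nduf, which takes in subunits and assembly factors of respiratory complex I, had 2 of 47 higher in Nerve and 4 in PSC (4.26% and 8.51%). Protocadherins outside the clusters had 9 of 12 higher in Nerve and 2 in PSC. These counts stand beside 22.5% and 14.6% of all genes, and the shares of zinc finger, histone and Nduf genes lie below both. The families were not tested as sets.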
